A study of Homo sapiens with 6 samples.

Results

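The genes described here are the 8 human genes named as inhibitors of cyclin-dependent kinases: CDKN1A, CDKN1B and CDKN1C of the CIP/KIP family, CDKN2A, CDKN2B, CDKN2C and CDKN2D of the INK4 family, and CDKN3. They were chosen by symbol from the 61806 genes of the deposited table. Each symbol matched 1 row, and 6 of the 8 passed the filter on low counts that left 16082 genes. RNA came from A549 cells, a human lung adenocarcinoma line labelled wild type, that were seeded for 24 h and then treated for 24 h. There were 3 libraries after the solvent DMSO and 3 after Japoflavone B, which the series title describes as an inhibitor of PARP1. The labels give the dose as 40 with no unit and title the treated libraries LE-532, a code they do not explain. They do not say whether the 3 libraries of a group came from separate cultures, so the p-values below measure only the spread between these libraries.

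Cyclin-dependent kinases drive the cell cycle when bound to a cyclin. INK4 proteins bind CDK4 and CDK6 and keep them from the D-type cyclins, whereas CIP/KIP proteins bind complexes of a cyclin with its kinase and mainly block those of CDK2. CDKN3 is of another kind, a phosphatase that removes an activating phosphate from CDK2 and CDK1. CDKN1A encodes p21, known for its part in stopping the division of cells with damaged DNA. A549 cells are known to lack CDKN2A through a homozygous deletion.

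The libraries held 15298531 to 21744407 counts. The share of counts on the mitochondrial genome was 4.36% ± 0.371 in the DMSO libraries and 8.43% ± 0.127 in the treated ones (SD, n = 3); with its genes left out, CDKN1A stood at 3.29 and CDKN2C at -3.95 log2 (Japoflavone B over DMSO), and all 6 tested inhibitor genes had the same call. Of 5 epithelial markers 4 fell, and all 5 markers typical of A549 cells did, where 35.4% of all genes tested were called lower. The summed level of the epithelial markers was 687 to 769 FPKM (counts scaled by library total and by exonic length) after DMSO and 213 to 226 FPKM after Japoflavone B, while 3 leukocyte markers summed to at most 0.18 FPKM and 3 endothelial markers to at most 0.07 FPKM in any library, and CD3E and VWF had no read. PTPRC, the common leukocyte antigen, had 1 read in each of 2 libraries. The sum of 3 fibroblast markers, most of it COL1A1, was 4.63 to 5.14 FPKM after DMSO and 0.53 to 0.69 FPKM after Japoflavone B. The part of these markers in the results was not tested. In bulk RNA, fewer cells of a kind and less RNA per cell cannot be told apart.

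The inhibitor genes did not move as a block. CDKN1A rose almost 10-fold, CDKN2D nearly doubled and CDKN1B rose slightly, while CDKN2C fell more than 15-fold and CDKN3 more than 3-fold. CDKN1C was barely expressed and was not called, and CDKN2A and CDKN2B had next to no reads in either group. Calls are at an adjusted p under 0.05 in edgeR's quasi-likelihood test with Benjamini-Hochberg adjustment over all 16082 genes. By this rule 3 of the 6 tested inhibitor genes were higher, where 34.7% of all genes tested were, and 2 were lower, where 35.4% of all were. In either direction 5 of 6 were called, where 70% of all were. The count of calls among the inhibitor genes was therefore near the background, and what set them apart from one another was direction and size. Levels below are FPKM. Fold changes use trimmed-mean scaling, so the ratio of 2 FPKM values differs slightly from the fold.

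**Figure D1:**
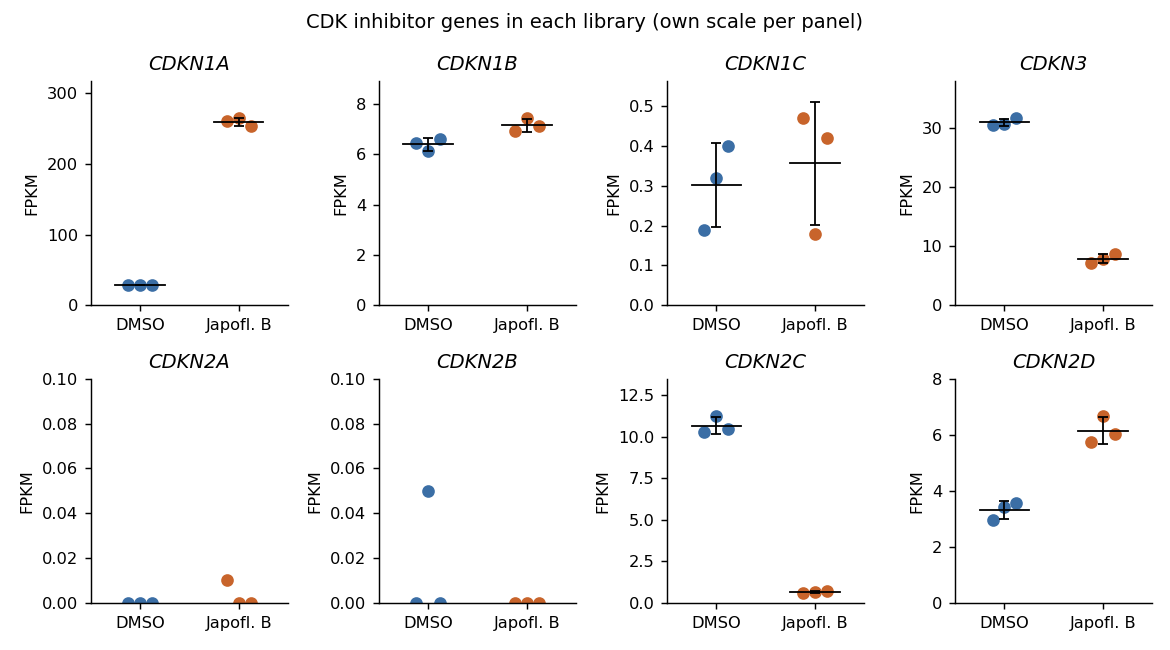
FPKM of the 8 CDK inhibitor genes in each library, on a vertical axis of its own for each gene, with DMSO libraries in blue and Japoflavone B libraries in orange; black bars are the mean and SD of 3 libraries, left out for CDKN2A and CDKN2B. CDKN1A lies between 253 and 264 FPKM in the treated libraries against 28.1 to 28.7 FPKM in the solvent libraries, and CDKN2C between 0.59 and 0.7 FPKM against 10.3 to 11.2 FPKM.

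CDKN1A (ENSG00000124762, chromosome 6, 36676460 to 36687337, GRCh38) had 28.13, 28.6 and 28.67 FPKM in the DMSO libraries and 260.31, 264.24 and 253 FPKM in the Japoflavone B libraries. The libraries of a group lay within a few percent of each other and the groups were far apart. In counts, 1755, 1863 and 1314 reads stood against 15459, 12456 and 13975. The log2 fold change was 3.29 ± 0.05 (SE; 95% interval 3.18 to 3.40; edgeR adjusted p = 1.39e-26), or 9.78-fold. By mean FPKM the gene moved from rank 1441 to rank 95 among the 16082 genes tested. By fold it ranked 144 from the top. Of all genes tested, 9.67% were called at least 2-fold higher.

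The promoter of CDKN1A is rich in GC boxes, the binding element of SP1-type factors. The stretch before the first protein-coding exon of GENCODE 29 is shown, from RefSeq's promoter table (GRCh38.p14, chr6:36678464-36678657, plus strand), with GGGCGG in capitals; it ends 56 bases before the start site, and its first 96 bases overlap an exon of DINOL, a long non-coding RNA on the other strand.
CDKN1A: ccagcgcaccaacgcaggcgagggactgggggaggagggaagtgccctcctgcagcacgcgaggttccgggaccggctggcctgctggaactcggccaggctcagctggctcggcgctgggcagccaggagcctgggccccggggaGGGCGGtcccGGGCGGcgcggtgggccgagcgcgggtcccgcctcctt
The full window of 250 bases before the start held 4 such boxes, the 2 shown and 2 nearer the start site that share a base. The boxes were not particular to CDKN1A, as 1 window of CDKN2C, a gene that fell, held 5. On either strand, 42.5% of 34943 promoter windows of this length held at least 1. The same windows were searched on both strands for the CCAAT box. They were also searched for the TATA box spelled TATAAA. A further element was the cell cycle homology region (CHR) of late cell cycle genes, spelled TTTGAA. The AP-1 element was spelled TGANTCA. The E2F-type element was spelled TTCCCGC, and the CDKN1A window held none of these other elements. A match in such a window is a string of letters and not evidence of binding.

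CDKN1B (ENSG00000111276, chromosome 12, 12685498 to 12722369), the gene of p27, had 6.44, 6.11 and 6.6 FPKM after DMSO and 6.91, 7.42 and 7.13 FPKM after Japoflavone B. Every treated library was above every solvent library, by a small step. The groups did not overlap, in either direction, for 71.6% of all genes tested. The log2 fold change was 0.27 ± 0.06 (95% interval 0.14 to 0.40; edgeR adjusted p = 5.49e-04), or 1.2-fold, below the median absolute change of 0.53 log2 over all genes tested. The size depends on the scaling: with library totals in place of trimmed-mean factors it was 0.16 log2, and with limma on log2(FPKM + 1) it was 0.14 log2 with adjusted p = 0.0456. CDKN1B overlaps GPR19, a receptor gene on the other strand, which had 0.53 to 0.7 FPKM in the 6 libraries. The CDKN1B promoter window, which lies mostly in its first exon and is not shown, held 1 GC box and 2 CCAAT boxes. The strand setting of the counting is not given in the sources used here.

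CDKN1C (ENSG00000129757, chromosome 11, 2883213 to 2885775), the imprinted gene of p57, was near the detection limit. Its reads numbered 10, 17 and 15 after DMSO and 23, 7 and 19 after Japoflavone B, or 0.19 to 0.4 and 0.18 to 0.47 FPKM. The groups overlapped, and the log2 fold change was 0.39 ± 0.42 (edgeR adjusted p = 0.42). Its 95% interval ran from -0.48 to 1.25, and changes within it were not detectable at this depth. The value was 0.14 without DMSO replicate 1, 0.15 without Japoflavone B replicate 1, 0.60 without DMSO replicate 3 and 0.68 without Japoflavone B replicate 2.

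Within the CIP/KIP family CDKN1A was the main transcript in both groups, at 81.0% ± 0.636 of the family's summed FPKM in the DMSO libraries and 97.2% ± 0.0727 in the treated libraries (SD, n = 3). The sum over the 3 genes was 34.8, 35 and 35.7 FPKM in the DMSO libraries and 268, 272 and 261 FPKM in the Japoflavone B libraries. The sum of CDK1 and CDK2, kinases of complexes that the family binds, went the other way. It was 67.4 to 68.3 FPKM after DMSO and 19.1 to 20.2 FPKM after Japoflavone B. CDK4 and CDK6 were not part of it. Per unit of CDK1 and CDK2 transcript there were 0.518 ± 0.00823 units of CIP/KIP transcript after DMSO and 13.5 ± 0.693 after Japoflavone B, 26 times as much. These are ratios of transcripts and say nothing of protein.

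CDKN2C (ENSG00000123080, chromosome 1, 50960745 to 50974634), the gene of p18, carried the largest change of the 8 genes. It had 10.28, 11.23 and 10.44 FPKM after DMSO, from 646, 737 and 482 reads. After Japoflavone B it had 0.59, 0.63 and 0.7 FPKM, from 35, 30 and 39 reads. The groups were separated by a wide gap and the treated libraries still held enough reads to measure a level. The log2 fold change was -3.95 ± 0.13 (95% interval -4.23 to -3.68; edgeR adjusted p = 3.06e-20), or 15.5-fold lower. By fold it ranked 37 from the bottom of the 16082 genes tested, of which 15% were called at least 2-fold lower. On log2(FPKM + 1), which compresses low levels, the change was -2.83.

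RefSeq lists 3 start windows for CDKN2C. The second of them held both E2F-type elements found among the windows of the 8 genes, whereas 5.51% of all promoter windows held 1 or more. They are shown with 10 bases on either side (GRCh38.p14, plus strand, chr1:50968565-50968591 and chr1:50968662-50968688), with TTCCCGC or its reverse complement in capitals. The elements end 125 and 28 bases before that start site, and both lie in bases that GENCODE 29 counts as exon of a longer transcript. The same window also held 5 GC boxes.
CDKN2C element 1: agagcgggagGCGGGAAtgagggcgcg
CDKN2C element 2: gcgcccggccTTCCCGCtcccgcggcg
The deposited counts are per gene, so which of these starts the reads came from was not tested.

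CDKN2D (ENSG00000129355, chromosome 19, 10566460 to 10569059), the gene of p19, moved in the opposite direction to CDKN2C. It had 2.97, 3.42 and 3.56 FPKM after DMSO and 5.73, 6.67 and 6.02 FPKM after Japoflavone B, from 82 to 112 and 158 to 171 reads. The groups did not overlap, which was so for 71.6% of all genes tested. The log2 fold change was 0.99 ± 0.15 (95% interval 0.68 to 1.30; edgeR adjusted p = 1.35e-06), or 1.99-fold. Its promoter stretch is shown as the second INK4 promoter of an expressed gene (GRCh38.p14, chr19:10569060-10569229, minus strand, ending 80 bases before the start site, with CCAAT and GGGCGG in capitals).
CDKN2D: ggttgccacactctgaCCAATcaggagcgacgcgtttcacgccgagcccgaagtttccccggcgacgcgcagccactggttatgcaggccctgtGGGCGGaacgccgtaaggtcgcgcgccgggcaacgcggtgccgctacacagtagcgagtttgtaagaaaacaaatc
A second GC box of the CDKN2D window lies nearer the start site, outside the stretch shown. CCAAT was found in 32% of all promoter windows.

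CDKN2A (ENSG00000147889, chromosome 9, 21967752 to 21995301), whose reading frames encode p16 and ARF, had no read in any DMSO library and 1 read in 1 Japoflavone B library. CDKN2B (ENSG00000147883, chromosome 9, 22002903 to 22009305), the gene of p15, had 4 reads in DMSO library 2 and none in the other 5 libraries. Over the 57869227 counts of the DMSO libraries, the count of 0 for CDKN2A allows up to 0.0518 CPM (counts scaled by library total). Over the 53993407 counts of the Japoflavone B libraries, the count of 0 for CDKN2B allows up to 0.0556 CPM. These limits are for counting error only. They do not apply to CDKN2A after Japoflavone B or to CDKN2B after DMSO, which had reads. Neither gene passed the filter, and no fold is given.

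Low counts on this stretch of chromosome 9 were not limited to the pair; the window used here was chosen after the counts were seen. Of 60 genes within 1 Mb, 27 had no read in any library, many of them interferon genes and pseudogenes, and 10 passed the filter. MTAP, an enzyme of methionine salvage next to CDKN2A, had 46 reads over the 6 libraries. A gene without a symbol on the same strand as MTAP spans it, from 21802636 to 22029594, and had no read. The effect of this overlap on the count of MTAP was not tested. Farther out on the MTAP side, KLHL9, a ubiquitin ligase adaptor, had 13 ± 0.969 FPKM after DMSO and 11.2 ± 0.362 FPKM after Japoflavone B, and the interferon gene IFNE had 1.79 ± 0.252 and 1.83 ± 0.341 FPKM (SD, n = 3). Neither was called (log2 -0.12, edgeR adjusted p = 0.0887, and log2 0.14, adjusted p = 0.608), although KLHL9 was called lower in 5 of 16 alternatives, at -0.22 log2 with library totals and -0.17 log2 without DMSO replicate 3. On the other side DMRTA1, a transcription factor gene, rose from 0.393 ± 0.0153 to 1.64 ± 0.218 FPKM, 4.47-fold (edgeR adjusted p = 1.72e-11). CDKN2B-AS1, the antisense RNA that spans CDKN2B, had 83, 109 and 50 reads after DMSO and 99, 76 and 94 after Japoflavone B. These reads are spread over an unknown part of its span of 21994139 to 22128103, and it was not called (log2 0.37, edgeR adjusted p = 0.0787; 0.54 and adjusted p = 0.0284 without DMSO replicate 2). Other genes of the window did change. On the MTAP side the non-coding gene MIR31HG rose (1.32 log2, edgeR adjusted p = 1.32e-12), while FOCAD, a gene of focal adhesions, and HACD4, of fatty acid elongation, fell (-0.67 and -2.30 log2). The interferon pseudogene IFNA20P was called higher from 0, 3 and 0 reads after DMSO and 20, 16 and 12 after Japoflavone B. On the other side LINC01239 rose (2.00 log2, at 4 to 41 reads a library) and a gene without a symbol, ENSG00000236921, fell (-0.61 log2). Of the 10 genes past the filter, 4 were thus higher, 3 lower and 3 not called. Among all genes tested, 34.7% were higher and 35.4% lower. Gene counts cannot tell a deleted gene from a silent one.

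**Figure D2:**
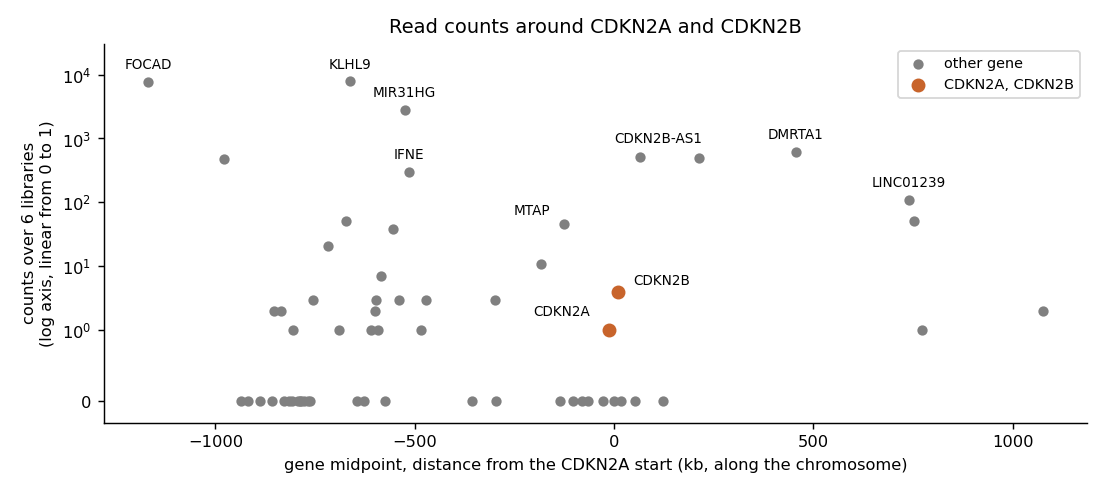
Reads summed over the 6 libraries (vertical, log axis, linear between 0 and 1) for the 60 genes within 1 Mb of CDKN2A, by the distance of each gene's midpoint from the CDKN2A start in kb along the chromosome (horizontal). CDKN2A with 1 read and CDKN2B with 4 reads lie among genes with none, between MTAP with 46 reads and CDKN2B-AS1 with 511.

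With CDKN2A and CDKN2B at or near 0, the INK4 family in these cells was CDKN2C and CDKN2D, and their order was exchanged. CDKN2C made up 76.2% ± 1.52 of the family's summed FPKM after DMSO and 9.46% ± 0.901 after Japoflavone B, and CDKN2D 23.7% ± 1.55 and 90.5% ± 0.894 (SD, n = 3). The ratio of CDKN2D to CDKN2C was 0.289, 0.305 and 0.341 in the DMSO libraries and 9.71, 10.6 and 8.6 in the Japoflavone B libraries. The gain of CDKN2D did not offset the loss of CDKN2C: the INK4 sum was 13.3, 14.7 and 14 FPKM in the DMSO libraries and 6.33, 7.3 and 6.72 FPKM in the Japoflavone B libraries. The sum of CDK4 and CDK6, the kinases that INK4 proteins bind, was 42.7 ± 0.981 FPKM after DMSO and 33.4 ± 1.98 FPKM after Japoflavone B. Per unit of CDK4 and CDK6 transcript, INK4 transcript went from 0.327 ± 0.018 to 0.203 ± 0.00879, with no overlap between groups. The families thus moved in opposite directions relative to the kinase sums used here. CIP/KIP rose per CDK1 and CDK2, and INK4 fell per CDK4 and CDK6.

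**Figure D3:**
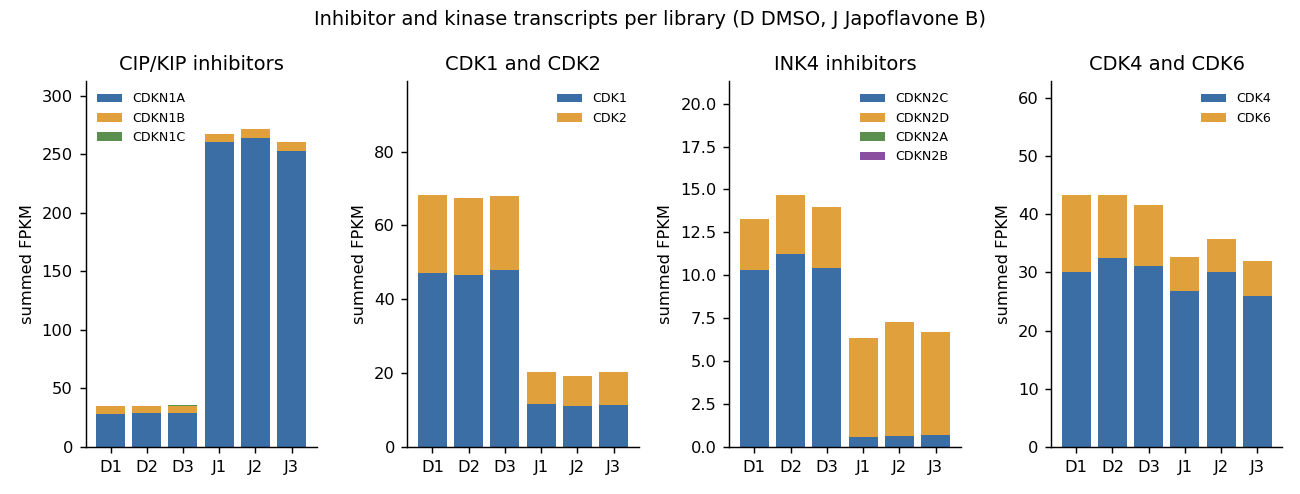
Stacked FPKM of the CIP/KIP genes, of CDK1 and CDK2, of the INK4 genes and of CDK4 and CDK6 in each library (D1 to D3 DMSO, J1 to J3 Japoflavone B), each panel on its own vertical axis from 0. The CIP/KIP sum is near 35 FPKM in the DMSO libraries and 261 to 272 FPKM in the Japoflavone B libraries, and the INK4 sum changes from mostly CDKN2C to mostly CDKN2D.

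CDKN3 (ENSG00000100526, chromosome 14, 54396849 to 54420218) had the highest FPKM of the 8 genes after DMSO, at 30.66, 30.73 and 31.7 FPKM, and had 7.12, 7.89 and 8.75 FPKM after Japoflavone B. The treated libraries all lay far below the solvent libraries. The log2 fold change was -1.87 ± 0.08 (95% interval -2.04 to -1.70; edgeR adjusted p = 2.35e-17), or 3.65-fold lower, at rank 736 from the bottom by fold. The gene is named for its inhibition of CDKs, yet its transcript is known to be periodic and high in dividing cells. Its promoter stretch is shown for the elements typical of late cell cycle genes (GRCh38.p14, chr14:54396757-54396954, plus strand, ending 52 bases before the start site). CCAAT, its reverse complement ATTGG and the reverse complement TTCAAA of the CHR are in capitals.
CDKN3: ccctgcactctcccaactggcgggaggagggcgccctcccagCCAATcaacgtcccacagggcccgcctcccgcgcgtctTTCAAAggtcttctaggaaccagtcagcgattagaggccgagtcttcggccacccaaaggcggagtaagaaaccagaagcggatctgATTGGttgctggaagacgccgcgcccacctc
Among the windows found for the 8 genes, the one of CDKN3 alone held the CHR letters, which 13.4% of all promoter windows held. No window of the 7 genes with one in the table held TATAAA or TGANTCA, present in 10.8% and 6.59% of all windows.

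The order of levels changed with treatment. After DMSO it ran CDKN3, CDKN1A, CDKN2C, CDKN1B, CDKN2D and CDKN1C, and no neighbours in that order overlapped over their 3 libraries. After Japoflavone B it ran CDKN1A, CDKN3, CDKN1B, CDKN2D, CDKN2C and CDKN1C. CDKN3 and CDKN1B then overlapped (lowest and highest library 7.12 and 7.42 FPKM), so that their order was not resolved, and the other neighbours did not overlap. CDKN1A stood 36.3 ± 1.23 times above CDKN1B after Japoflavone B and 4.46 ± 0.188 times after DMSO (ratios of FPKM, SD, n = 3). The order, these ratios and the family sums and shares rest on the deposited exonic sizes. These were 9255 bases for CDKN1B, 2996 for CDKN1A and 1829 for CDKN3. In reads summed over the DMSO libraries, CDKN1A had 4932, CDKN1B 3404 and CDKN3 3277. Over the Japoflavone B libraries CDKN1A had 41890 and CDKN1B 3563. Taken 1 gene at a time, an exact permutation test (two-sided) over the libraries gave p = 0.1 for each of the 5 called genes, the smallest that 3 against 3 allows, and p = 0.5 for CDKN1C.

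**Figure D4:**
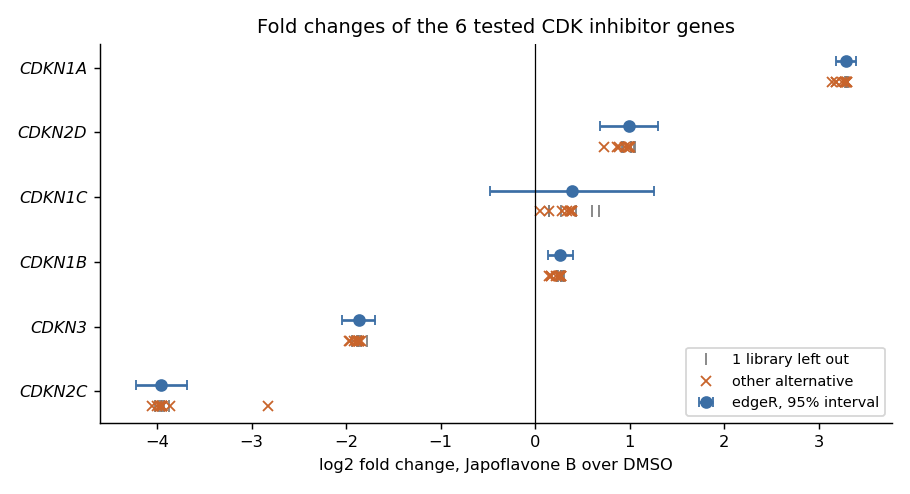
Log2 fold change of Japoflavone B over DMSO for the 6 tested genes: blue points are the edgeR values with 95% intervals, orange crosses the other alternatives, grey ticks the fits with 1 library left out. CDKN1A lies at 3.29 and CDKN2C at -3.95, with 1 alternative of CDKN2C, limma on log2(FPKM + 1), at -2.83, and the interval of CDKN1C spans 0.

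Genes whose centred log2 values over the 6 libraries lay nearest to each inhibitor gene were sought among 11346 genes with a symbol and a mean of at least 1 FPKM. The measure is the Euclidean distance in log2 CPM, and with 2 groups it mostly matches the size of the change. Nearest to CDKN1A were ASNS, asparagine synthetase (distance 0.257), and the EGF receptor ligand genes AREG (0.298) and HBEGF (0.308), with log2 fold changes of 3.52, 3.11 and 3.24. CPLX2, a complexin of vesicle fusion, HJURP, the chaperone of the centromeric histone, and LXN, a carboxypeptidase inhibitor, were nearest to CDKN2C (0.212, 0.44 and 0.509), with log2 fold changes of -3.98, -3.58 and -3.54. CPLX2 fell from 233 ± 2.66 to 13.8 ± 0.331 FPKM (SD, n = 3). Near CDKN3 lay DCAF6 and TACC3, the gene of a spindle protein (0.123 and 0.152), at -1.82 and -1.89 log2. CMTM8, SLC35A2 and RAD52, a recombination mediator, lay nearest to CDKN2D (0.0695, 0.0929 and 0.0933), at 0.94, 0.93 and 0.92 log2. CTBP2, a corepressor, and the chaperone genes DNAJA2 and HSP90B1 lay nearest to CDKN1B (0.0605, 0.0669 and 0.0684), at 0.25, 0.30 and 0.29 log2. For CDKN1C, whose values are mostly counting noise, the nearest were FTH1P23, ZNF566-AS1 and NHSL1-AS1, none of them called (0.26, 0.19 and 0.46 log2). NHSL1-AS1 was called higher without DMSO replicate 3 or without Japoflavone B replicate 2 (0.68 log2 in both).

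Tested neighbours within 100 kb of the inhibitor genes moved in both directions. FAF1, a scaffold of death receptor signalling, starts 0.478 kb from CDKN2C on the other strand. It had 7.62, 8.36 and 7.67 FPKM after DMSO and 6.95, 7.96 and 7.72 FPKM after Japoflavone B, and was not called (log2 0.04, edgeR adjusted p = 0.657; the sign turned with library totals, -0.068), beside the 15.5-fold fall of CDKN2C. SRSF3, a splicing factor gene and the only tested neighbour of CDKN1A, fell 3.28-fold, from 45.95 ± 1.8 to 13 ± 0.622 FPKM (edgeR adjusted p = 1.68e-20). Near CDKN3, CNIH1, a cargo receptor gene 3.34 kb away, rose by 0.38 log2, CGRRF1, a ubiquitin ligase gene, by 1.65 log2, and GMFB fell by 0.32 log2. Of 9 tested neighbours of CDKN2D, 7 fell and 1, the autophagy protease ATG4D, rose by 0.93 log2, where 35.4% of all genes tested were lower and 34.7% higher. CDKN3 had 2 higher and 1 lower of 3 tested neighbours, CDKN1C 2 higher and 1 lower of 5, and CDKN1B 1 higher and 0 lower of 4. Near CDKN2D, the epithelial clathrin adaptor AP1M2 stood at -2.66 log2 and the lipid receptor S1PR5 at -2.04 log2. KEAP1, the NRF2 repressor, stood at -1.07 log2. PDE4A (-0.89 log2) and SLC44A2 (-0.35 log2) also fell, while KRI1, 0.429 kb away, stood at 0.02 log2 (adjusted p = 0.853). Near CDKN1B, CREBL2, GPR19 and APOLD1 were not called (0.12, -0.02 and -0.04 log2), although CREBL2 was without DMSO replicate 1 (0.15 log2, edgeR adjusted p = 0.025). DDX47 was called higher at 19 to 77 reads a library (0.72 log2, edgeR adjusted p = 0.0254), a call lost in 7 of 15 alternatives, among them those without DMSO replicate 2, DMSO replicate 3 or Japoflavone B replicate 1 (adjusted p = 0.0824, 0.0914 and 0.266). The span of APOLD1, 12725917 to 12829975, covers most of that of DDX47, 12813316 to 12829981, on the same strand. The effect of this overlap on their counts was not tested.

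CDKN1C lies in the imprinted domain of chromosome 11p15. Of 10 tested genes of that domain, CDKN1C included, 6 rose, 1 fell and 3 were not called. Over all genes tested, 34.7% were higher and 35.4% lower. Within the domain, 1 gene changed at least 2-fold. CARS1, a cysteinyl-tRNA synthetase gene, rose 3.65-fold, SLC22A18 1.53-fold, TSSC4 1.5-fold, PHLDA2 1.61-fold IGF2 1.85-fold, at under 1 FPKM, and CD81 1.21-fold, a call lost with limma on FPKM. The histone chaperone gene NAP1L4 fell 1.47-fold. KCNQ1, beside CDKN1C, was not called at 0.323 to 0.33 FPKM by group mean (log2 0.04, edgeR adjusted p = 0.924), nor was KCNQ1OT1, the antisense RNA within it (-0.45 log2, adjusted p = 0.159; -0.86 and 0.018 without Japoflavone B replicate 3). The third gene not called was CDKN1C itself. SLC22A18AS, a neighbour of CDKN1C outside that list, was not called either (-0.47 log2, adjusted p = 0.386).

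The kinases and cyclins that the inhibitors act on fell with few exceptions. Of 11 tested genes of a list of 13, 9 fell and 1 rose, where 35.4% of all genes tested were lower and 34.7% higher. The median of the list was -1.95 log2, and that over all genes tested was -0.00. The cyclins CCNA2, CCNB2 and CCNB1, partners of CDK2 and CDK1, fell 7.59-fold, 5.6-fold and 5.25-fold (edgeR adjusted p = 1.77e-23, 1.32e-22 and 2.86e-23). CDK1 fell from 47.2 ± 0.621 to 11.4 ± 0.392 FPKM (3.85-fold) and CDK2 from 20.8 ± 0.562 to 8.45 ± 0.3 FPKM (2.29-fold). Of the kinases bound by INK4 proteins, CDK6 fell 1.84-fold. CDK4 had 30.06, 32.48 and 31.08 FPKM after DMSO and 26.87, 30.03 and 25.86 FPKM after Japoflavone B, and was not called (-0.08 log2, adjusted p = 0.277), but was called lower in 3 alternatives, at -0.18 log2 with library totals. D-type cyclins parted, with CCND3 4.45-fold lower and CCND1 the gene that rose, 1.19-fold. CCNE1, the G1/S cyclin, fell 2.54-fold.

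Of 13 pocket protein and E2F genes, whose products the kinases act on, 7 fell and 3 rose (median -0.31 log2). The shares over all genes tested were 35.4% lower and 34.7% higher. E2F8 and E2F2 fell 11.2-fold and 10.3-fold, RBL1, the gene of p107, 3.16-fold, and the dimer partners TFDP1 and TFDP2 1.78-fold and 1.36-fold. Those that rose were E2F5, E2F6 and E2F7, by 0.55, 0.25 and 0.27 log2, and with library totals the call of E2F5 alone was left. The call of E2F6 was also lost without DMSO replicate 2 or without Japoflavone B replicate 2 (edgeR adjusted p = 0.0818 and 0.0624).

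**Figure D5:**
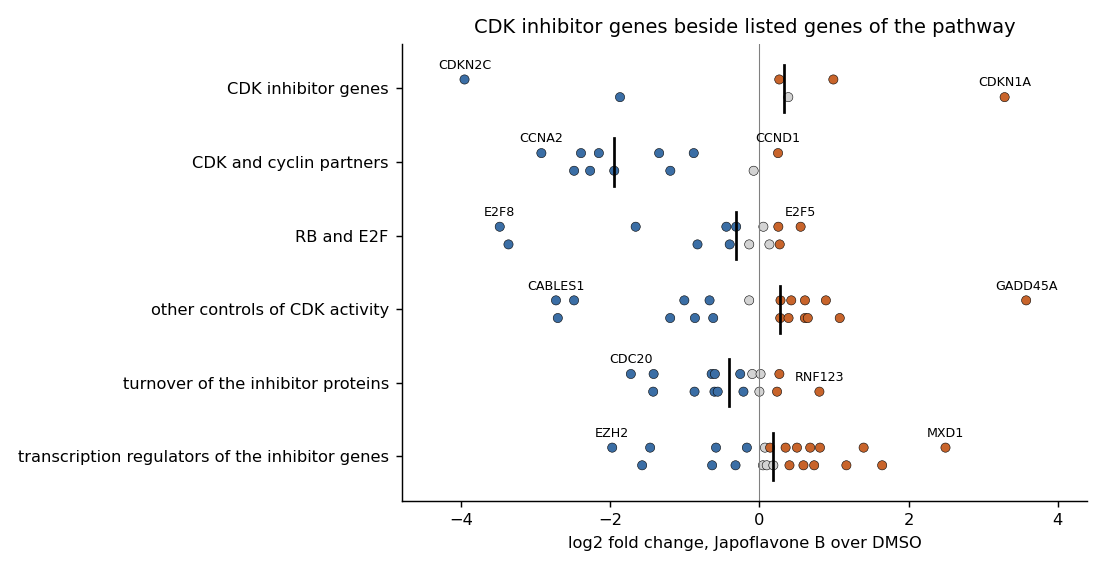
Log2 fold change of Japoflavone B over DMSO (horizontal) for the tested CDK inhibitor genes and the tested genes of 5 lists; orange is called higher, blue called lower, grey not called, the black bar is the median, and the lowest and highest gene of each set are labelled. CDK and cyclin partners lie mostly below 0 with a median of -1.95, whereas CDK inhibitor genes run from -3.95 for CDKN2C to 3.29 for CDKN1A.

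Other controls of CDK activity were divided, with 10 of 19 tested higher and 8 lower (median 0.28 log2). Over all genes tested, 34.7% were higher and 35.4% lower. GADD45A, whose product binds p21 and inhibits CDK1, rose from 7.12 ± 0.751 to 78.7 ± 3.4 FPKM (11.9-fold, edgeR adjusted p = 1.55e-24). The CDC25 phosphatases, which remove inhibitory phosphates from CDKs, all fell: CDC25C 6.51-fold, CDC25A 5.6-fold and CDC25B 2.29-fold. The kinases that add those phosphates fell as well, WEE1 2.01-fold and PKMYT1 1.82-fold. CDK7 and its cyclin CCNH, of the complex that activates CDKs, rose 1.86-fold and 1.53-fold. CABLES1, a gene that links CDKs to the kinase WEE1, fell 6.63-fold.

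Genes of the machinery that degrades p21 and p27 were mostly lower, with 10 of 16 lower and 3 higher (median -0.41 log2). Of all genes tested, 35.4% were lower and 34.7% higher. SKP2, the F-box protein that recognises p27, fell from 2.16 ± 0.165 to 0.753 ± 0.0611 FPKM (2.67-fold), DTL, the adaptor that recognises p21 on PCNA, 2.68-fold, and CDC20, an activator of the anaphase-promoting complex, 3.3-fold. PCNA itself fell 1.83-fold and the scaffold CUL4B 1.56-fold. Those that rose were RNF123 and UBAC1, which form a p27 ligase, and MKRN1, by 0.80, 0.24 and 0.27 log2; the call of UBAC1 was lost with library totals.

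Of 23 transcription regulators known to act on the inhibitor genes, 12 rose and 7 fell (median 0.19 log2), where 34.7% of all genes tested were higher and 35.4% lower. EZH2, the Polycomb methyltransferase known for silencing INK4 genes, fell 3.93-fold, from 5.76 ± 0.621 FPKM after DMSO (edgeR adjusted p = 2.05e-17). KLF6, an activator of CDKN1A, rose 2.25-fold and RUNX1 2.64-fold. MYC, known as a repressor of CDKN1A, rose 1.76-fold, and ZBTB17, the gene of its partner MIZ1, rose 3.13-fold. The list holds activators and repressors, and its count therefore has no single direction for the inhibitor genes.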

How the data were processed

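Poly(A) RNA was sequenced per the labels' protocols. Tools listed in the submitters' processing notes, with no role or order, are HTSeq 0.6.1, HISAT2 2.0.1, cutadapt 1.9.1 and DESeq2, on GRCh38; annotation release and strand setting are not given in the sources used here. The deposited table holds raw counts per gene that the authors made, exonic gene sizes, and FPKM that the authors computed from counts, size and column total (recomputed values differed by at most 0.005).

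Groups came from the treatment labels. Genes were filtered with filterByExpr (minimum count 10, total 15), scaled by trimmed-mean factors (0.957 to 1.04) and fitted with edgeR 4.0.16 (quasi-likelihood, group alone) in R 4.3.3. SE is the log2 fold change over the square root of F. The fit was also run on simulated data with far fewer changed genes than were called here. That run does not test the scaling under so wide a change. Libraries of a group differed by more than sampling noise (chi-square per degree of freedom 2.56 to 8.04).

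The members and lists were chosen with earlier results of these data known. Named genes are the 8 members, up to 5 genes per list by adjusted p with at least 1 FPKM, the 9p21 list, tested neighbours within 100 kb and the 3 nearest in pattern. CDK2, CDK4, CDK6, CCND1, CCNE1, E2F5, E2F6, E2F7, UBAC1, MKRN1, RNF123, MYC and ZBTB17, WEE1, PKMYT1, CDK7, CCNH, some markers, the other genes within 1 Mb of CDKN2A and the remaining 11p15 genes were named after their values were seen. Alternatives used limma 3.58.1, DESeq2 1.42.0, other filters and scalings, a replicate block and each library left out. RefSeq promoter windows (GRCh38.p14, 250 bases) existed for 7 members. Some genes that this rule names are not reported here.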

Additional observations from a re-analysis of the deposited data

How the results depend on the processing

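All 5 called inhibitor genes kept direction and call in 16 alternatives, and CDKN1C stayed uncalled in 15; it was not among the genes of the filter at 2 FPKM. Ranges were 3.14 to 3.31 log2 for CDKN1A, 0.14 to 0.30 for CDKN1B, 0.73 to 1.05 for CDKN2D, -1.97 to -1.78 for CDKN3, -4.06 to -2.83 for CDKN2C and 0.055 to 0.68 for CDKN1C. Library totals shifted all genes by -0.10 log2 at the median, and 42.4% of calls were then higher against 49.5%. The labels state no pairing of replicates. Deviations of same-numbered libraries were hardly correlated (0.0134, -0.00417 and -0.0446), and no DMSO library correlated best with its own number. With 3 libraries in a group, these values cannot exclude a pairing. With the replicate block 5502 genes were higher and 5618 lower, against 5577 and 5686, CDKN1A stood at 3.29 and CDKN2C at -3.95 log2, and no inhibitor gene changed its call. Depth limits CDKN1C, CDKN2A and CDKN2B.

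The CIP/KIP sums were 133 and 936 as TPM and 33.9 and 276 FPKM over the trimmed-mean factor, and the INK4 sums 53.1 and 23.8 as TPM. Partner genes called higher numbered 2 with no filter and with DESeq2, against 1. E2F and pocket protein genes called higher numbered 1 with library totals and with both limma fits, against 3. In the 9p21 list 1 gene was called lower with library totals, both limma fits and the FPKM filter, which left 0 higher; leaving out libraries gave 0 to 1 lower and 1 to 2 higher. Leaving out libraries gave 1 to 2 lower genes in the 11p15 list.

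Values near 0 that were not called changed sign. FAF1 stood at -0.012 with the FPKM filter, -0.068 with library totals and -0.057 and -0.064 log2 with limma, and KRI1 at -0.029, -0.085, -0.073 and -0.081 in the same order. KCNQ1 stood at -0.064 with library totals and -0.0070 and -0.022 with limma, and ZNF566-AS1 at -0.012 with limma. With single libraries left out, FAF1 ran from -0.0025 to 0.10, KRI1 from -0.037 to 0.061, KCNQ1 from -0.20 to 0.32, GPR19 from -0.067 to 0.062, APOLD1 from -0.34 to 0.11, IFNE from -0.019 to 0.23, FTH1P23 from -0.011 to 0.53 and ZNF566-AS1 from -0.078 to 0.48. The cause was not tested.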
